A study of Mus musculus with 6 samples.

Results

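The 9 genes described here, Id1, Id2, Id3, Smad6, Smad7, Smad9, Bambi, Atoh8 and Tmem100, are known transcriptional targets of bone morphogenetic protein (BMP) signalling through SMAD proteins. They were taken by symbol from the deposited expression table, and all 9 were found among its 39179 genes. The cells were liver endothelial cells sorted from wild-type 129S6/SvEvTac male mice, with no transgene or other allele in either group. All mice were put on a purified AIN-93G diet when 3 weeks old and fed it for 4 weeks, until sampling at 7 weeks. The control_iron group ate 37 ppm iron as ferric citrate and the high_iron group 10000 ppm carbonyl iron, with 3 biological replicates each. The sort kept CD31+ CD146+ cells that were negative for CD45, lineage markers, MHCII and CD64. The labels do not say whether a library came from a single animal or a pool, so p-values measure the spread between these libraries. The question asked of these genes was whether the cells that make the ligand Bmp6 show a BMP response of their own on the high-iron diet.

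BMP ligands bind pairs of type I and type II receptor kinases, which phosphorylate SMAD1, SMAD5 and SMAD9. These join SMAD4, enter the nucleus and switch on a small set of genes that includes the Id family and the feedback inhibitors Smad6, Smad7 and Bambi. In the liver, BMP6 from endothelial cells acts on hepatocytes to induce the iron hormone hepcidin, while the endothelium itself is known to respond to BMP9 and BMP10 through the receptor ALK1.

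Of the 9 targets, 7 passed the filter on low values (at least 1 CPM in at least 3 of the 6 libraries), and Id2 was the single one that rose. It was 2.12 times as high by mean on the high-iron diet as on the control diet. The members Id1, Id3, Smad6, Smad7 and Bambi did not pass the test, and their intervals did not reach a 2-fold rise. Atoh8 was 1.91 times as high by mean and did not pass. Smad9 and Tmem100 were under 1 CPM in every library. In the same libraries the mean of Bmp6 was 127 ± 32.8 CPM on the control and 766 ± 136 CPM on the high-iron diet (SD, n = 3), and it passed. CPM is a normalised read count, scaled by the size of each library. Across all 12980 genes tested, 1.02% passed at an adjusted p under 0.05, 0.832% higher and 0.193% lower (limma on log2(CPM + 1), Benjamini-Hochberg adjustment). Against that background 1 of the 7 tested members was called higher and 0 lower. An unadjusted p under 0.05 was reached by 3 of the 7, where 12.1% of all genes tested reached it. EdgeR called the same single member, Id2, where it called 0.716% of all genes higher, and DESeq2 called Id2 and Atoh8, where it called 2.53% higher. Cells were sequenced in bulk, so fewer cells of a type and less RNA per cell cannot be told apart.

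**Figure D1:**
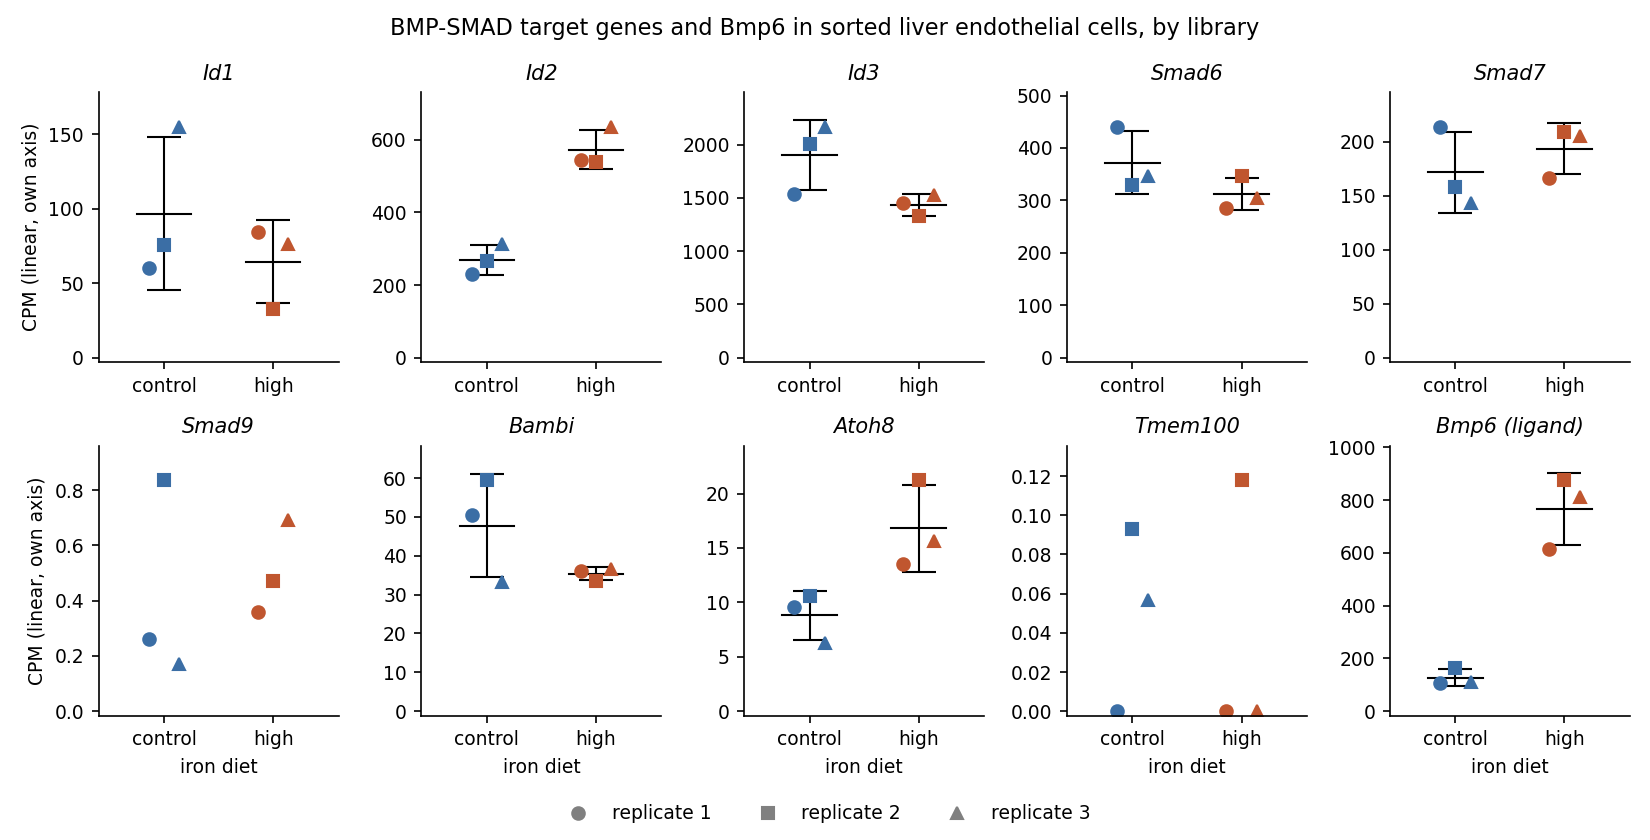
CPM of the 9 BMP-SMAD targets and of Bmp6 in each library, on linear axes that differ between panels; symbols are replicates, horizontal lines the mean and bars 1 SD (n = 3 per diet), both left out for Smad9 and Tmem100, which were not tested. Id2 lay between 231 and 312 CPM on the control diet and between 539.65 and 636 CPM on the high-iron diet, while Id1, Smad6, Smad7 and Bambi overlapped between diets.

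The libraries held 12963510 to 21663543 reads in genes, the fewest in high_iron replicate 3. All 12 listed genes of endothelium were expressed, and their summed level was 22586 to 24849 CPM in the control and 21831 to 23130 CPM in the high-iron libraries. None of the 12 passed by limma or edgeR and DESeq2 called 1, with an unadjusted limma p under 0.05 for 2. Those were Lyve1, called higher by DESeq2 (220 ± 43.5 and 339 ± 21.1 CPM), and Mcam, lower by mean (18.4 ± 8.46 and 8.85 ± 2.26 CPM, SD, n = 3). The most abundant per length were Clec4g, a lectin, and Oit3, both characteristic of sinusoidal endothelium. Macrophage markers were higher on the high-iron diet, as described at the end.

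The Id genes encode helix-loop-helix proteins without a DNA-binding region, which pair with E proteins and keep them off DNA. Id2 (ENSMUSG00000020644) lies on the minus strand of chromosome 12, from 25093799 to 25097140 (GRCm38, GENCODE M21). It was at 231, 266 and 312 CPM in control_iron replicates 1 to 3 and at 544, 539.65 and 636 CPM in high_iron replicates 1 to 3. Every high-iron library lay above every control library, a separation found in that direction for 9.46% of all genes tested. The group means were 269.8 ± 40.9 and 573 ± 54.6 CPM (SD, n = 3), and the log2 fold change was 1.09 ± 0.15 (SE, limma adjusted p = 0.011). The change was larger than the spread within either diet, where the highest library was 1.35 times the lowest on the control diet and 1.18 times on the high-iron diet. Id2 missed the threshold without high_iron replicate 3, the shallowest library (log2 fold change 1.01, adjusted p = 0.11, with 26 genes called in all), and with no filter on low values (adjusted p = 0.053). Summed macrophage markers were also higher in the same libraries, at 79.1 to 181 CPM on the control and 267 to 531 CPM on the high-iron diet, and their part in the result was not tested.

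Part of the RefSeq promoter window of Id2 is shown because Id2 is the member that rose. The window starts 250 bases before the RefSeq start site, and its first 89 bases are printed (GRCm38.p6, chr12:25096254-25096342, minus strand, positions -250 to -162 from the start). GENCODE M21 also annotates a longer Id2 transcript that starts upstream, at 25097140, so these bases lie inside the gene as annotated there, between exons of that transcript. Capitals mark the letters GGCGCC, a GC-rich sequence known to bind SMAD1 and SMAD5.
Id2: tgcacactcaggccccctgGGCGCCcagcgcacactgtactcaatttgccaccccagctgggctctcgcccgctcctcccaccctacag
The motif lay at positions -231 to -226. It was found on either strand in the 300-base windows of 13.4% of 27025 genes, so it is common among promoters. Such a match is letters in a window, not a measured site. Among the member windows whose matches were recorded, Smad9 held the other GGCGCC, at -51 to -46.

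Id1 (ENSMUSG00000042745) lies on the plus strand of chromosome 2, from 152736251 to 152737410, and is the Id gene most often used as a readout of BMP signalling. It was at 59.8, 75.3 and 155 CPM in the control libraries and at 84.2, 32.4 and 76.5 CPM in the high-iron libraries. The groups overlapped, since high_iron replicate 1 lay above 2 of the control libraries. Its log2 fold change was -0.57 ± 0.40 (SE, limma adjusted p = 0.59), with a 95% interval from -1.47 to 0.32. The upper bound is a 1.25-fold rise. Id1 was the most variable tested member within a diet. Its highest library was 2.59 times its lowest on the control diet and 2.60 times on the high-iron diet, while this ratio was 1.09 to 1.78 for the other 6 tested members. The highest value was that of control_iron replicate 3, and without it the log2 fold change was -0.17. Without high_iron replicate 2, the library with the least Id1, it was -0.14.

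Id3 (ENSMUSG00000007872) lies on the plus strand of chromosome 4, from 136143497 to 136145755, and was the most abundant of the 9 genes. It was at 1540.4, 2008 and 2169.9 CPM in the control libraries and at 1455, 1326 and 1529 CPM in the high-iron libraries. All 3 high-iron libraries lay below all 3 control libraries, by a narrow margin between high_iron replicate 3 and control_iron replicate 1, and 8.44% of all genes tested were separated in that direction. The means were 1906 ± 327 and 1437 ± 102 CPM (SD, n = 3). The log2 fold change of -0.40 ± 0.17 (SE) did not pass (limma adjusted p = 0.40), and its 95% interval ran from -0.78 to -0.01.

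The fourth gene of the family, Id4, is not among the 9 members and was named by its abundance among other BMP targets. It was at 97.0, 188 and 207 CPM in the control libraries and at 368, 366 and 262 CPM in the high-iron libraries. The groups did not overlap, a separation found in that direction for 9.46% of all genes tested. Its log2 fold change of 1.07 ± 0.27 (SE) did not pass (limma adjusted p = 0.12), and DESeq2 called it (adjusted p = 0.0074).

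The Id genes were also compared with each other inside each library, a ratio that library scaling does not touch. There was 3.86, 3.53 and 2.02 times as much Id2 as Id1 in CPM in the control libraries, and 6.46, 16.7 and 8.32 times as much in the high-iron libraries. In log2((CPM + 1)/(CPM + 1)) the mean ratio was 1.58 ± 0.50 on the control and 3.24 ± 0.69 on the high-iron diet (SD, n = 3), a difference of 1.66. For Id2 against Id3 the linear CPM ratio was 0.150, 0.133 and 0.144 in the control libraries and 0.374, 0.407 and 0.416 in the high-iron libraries. The log2 ratio went from -2.81 ± 0.09 to -1.33 ± 0.08, a difference of 1.49. Both ratios were separated without overlap, and the ratio to Id3 was the tighter within each diet. An exact two-sided permutation test gave p = 0.10 for each ratio (0.10 adjusted over the 2 ratios), the smallest value that 3 against 3 libraries allow. Both pairs were chosen with the values of the genes known. For Id2 against Id3 the separation, and with it the p-value, followed from the separations of Id2 and Id3 given above. These ratios therefore add no support beyond the values of the single genes.

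**Figure D2:**
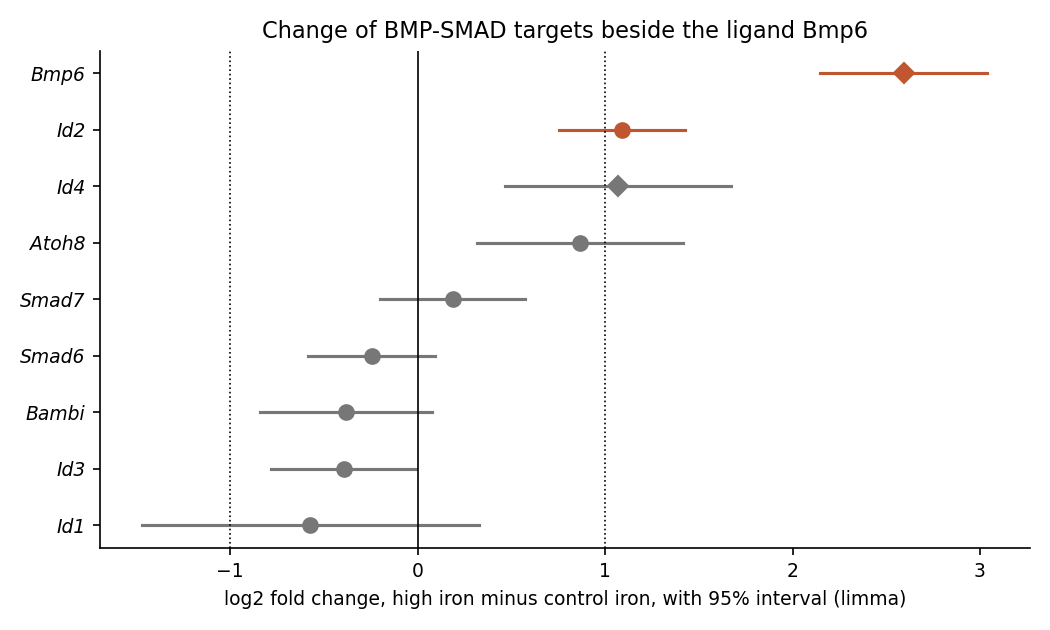
Log2 fold change on log2(CPM + 1), high iron minus control iron, with the 95% interval from limma, for Bmp6, the 7 tested members (circles) and Id4 (diamond, like Bmp6 not a member); orange marks genes that passed the test and dotted lines a 2-fold change. Bmp6 at 2.59 and Id2 at 1.09 passed, and the intervals of Smad7, Smad6, Bambi, Id3 and Id1 end left of a 2-fold rise.

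Smad6, Smad7 and Bambi form the negative feedback of the pathway. SMAD6 and SMAD7 block receptors and receptor SMADs, and BAMBI is a membrane protein that resembles a type I receptor but lacks the kinase. Smad6 (ENSMUSG00000036867, minus strand of chromosome 9, from 63953076 to 64022059) was at 441, 329 and 346 CPM in the control libraries and at 286, 347 and 304 CPM in the high-iron libraries. The diets overlapped through high_iron replicate 2. Its log2 fold change was -0.24 ± 0.15 (SE, limma adjusted p = 0.54), with a 95% interval from -0.58 to 0.09, at most a 1.07-fold rise.

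The Smad6 window is shown because it was the single recorded member window with the palindrome GTCTAGAC, a known high-affinity SMAD-binding sequence. The bases run from -250 to 4, counted from the RefSeq start with no position 0 (GRCm38.p6, chr9:64022056-64022309, minus strand), and capitals mark the palindrome.
Smad6: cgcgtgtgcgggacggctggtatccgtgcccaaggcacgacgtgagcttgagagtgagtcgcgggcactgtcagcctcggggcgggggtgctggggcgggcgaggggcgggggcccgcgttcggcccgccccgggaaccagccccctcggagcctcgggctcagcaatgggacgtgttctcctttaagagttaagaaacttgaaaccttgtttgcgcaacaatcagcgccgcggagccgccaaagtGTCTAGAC
The palindrome spanned the start site, from -4 to 4. It was present in the windows of 67 of 27025 genes (0.248%). The short SMAD-binding sequence GTCTG, the other motif searched and read on both strands, was found in the Id3 window, at -167 to -163 and -68 to -64. It was in none of the other member windows whose matches were recorded. It was in the windows of 53.2% of genes. None of these matches overlapped another.

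Smad7 (ENSMUSG00000025880, chromosome 18, plus strand), which also blocks TGF-beta receptors, was at 214, 158 and 143 CPM in the control libraries and at 166, 209 and 205 CPM in the high-iron libraries. The highest of the 6 libraries was control_iron replicate 1, so the groups overlapped. The log2 fold change was 0.19 ± 0.17 (SE, limma adjusted p = 0.68), with a 95% interval from -0.20 to 0.57, or at most a 1.49-fold rise. Bambi (ENSMUSG00000024232, chromosome 18, plus strand) was at 50.4, 59.4 and 33.3 CPM in the control libraries and at 36.2, 33.5 and 36.6 CPM in the high-iron libraries. The high-iron libraries were close to each other and to control_iron replicate 3, while control_iron replicates 1 and 2 stood above them. Its log2 fold change was -0.38 ± 0.21 (SE, limma adjusted p = 0.48), with a 95% interval from -0.84 to 0.08.

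Atoh8 (ENSMUSG00000037621, minus strand of chromosome 6, from 72206177 to 72235577) encodes a basic helix-loop-helix transcription factor that responds to BMP signals in endothelial cells and hepatocytes. It was at 9.56, 10.6 and 6.26 CPM in the control libraries and at 13.5, 21.2 and 15.7 CPM in the high-iron libraries. The high-iron libraries all lay above the control libraries, as they did for 9.46% of all genes tested. Means were 8.80 ± 2.26 and 16.8 ± 3.98 CPM (SD, n = 3). The log2 fold change was 0.87 ± 0.25 (SE, limma adjusted p = 0.17), with a 95% interval from 0.32 to 1.41. EdgeR gave an adjusted p of 0.19 and DESeq2 0.039, so the call depended on the test.

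Smad9 and Tmem100 were not tested. Smad9 (ENSMUSG00000027796, chromosome 3, from 54755582 to 54801257, plus strand), a receptor SMAD of the pathway and itself a BMP target, had 5, 18 and 3 reads in the control libraries and 7, 8 and 9 in the high-iron libraries. These are 0.260, 0.836 and 0.171 CPM, then 0.359, 0.472 and 0.692 CPM. The diets overlapped, and a floor of 3 reads is 0.139 to 0.231 CPM. Tmem100 (ENSMUSG00000069763, chromosome 11, from 90030348 to 90036508, plus strand), a membrane protein known as a target of ALK1 signalling in arterial endothelium, had 0, 2 and 1 reads in the control libraries and 0, 2 and 0 in the high-iron libraries. All 6 values are under the floor, so no fold is given.

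Per length, in RPKM, the order of the members was nearly the same in every library. Id3 was first (1067 ± 183 RPKM on the control and 804 ± 57.3 RPKM on the high-iron diet, SD, n = 3), Id2 second (213 ± 32.3 and 452 ± 43.1 RPKM) and Smad6 next (116 ± 18.7 and 97.0 ± 9.71 RPKM) in all 6. Id1 (58.5 ± 30.9 and 38.9 ± 16.9 RPKM) and Smad7 (36.1 ± 7.89 and 40.8 ± 4.96 RPKM) exchanged places between libraries and did not differ beyond their spread. Bambi and Atoh8 were at 9.47 ± 2.63 and 3.74 ± 0.96 RPKM on the control diet, and at 7.03 ± 0.34 and 7.14 ± 1.69 RPKM on the high-iron diet, where they could not be ranked. These levels rest on the deposited gene lengths, which differ from the merged GENCODE M21 exons most for Id2 (1267 against 2438 bases) and Id1 (1653 against 1160 bases).

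**Figure D3:**
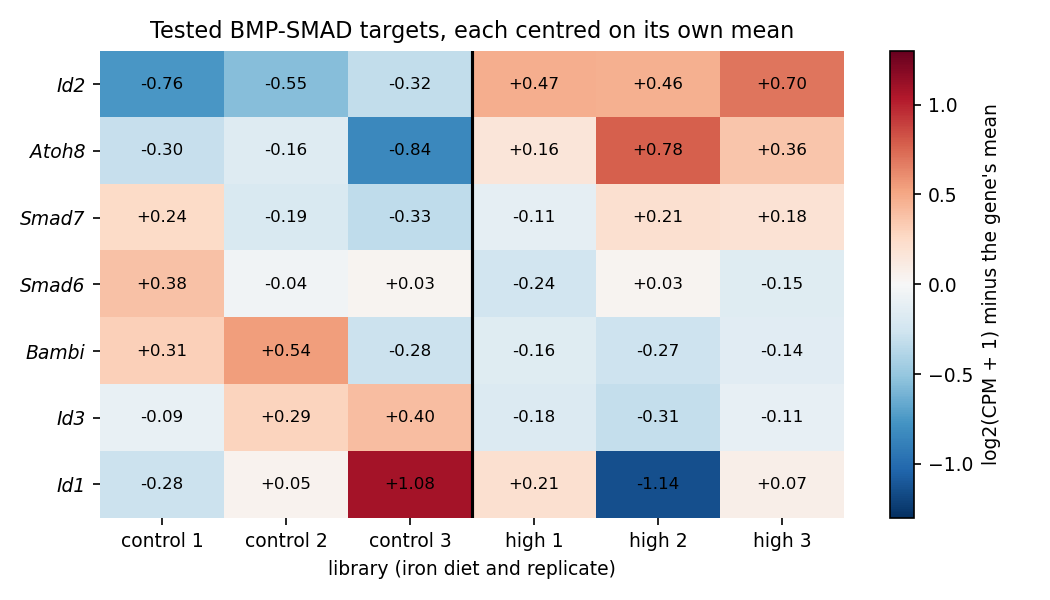
log2(CPM + 1) of the 7 tested members in each library, centred on the mean of the gene over the 6 libraries; red is above and blue below that mean, and the line parts the diets. Id2 runs from -0.76 to -0.32 on the control and from 0.46 to 0.70 on the high-iron diet, whereas Id1 is set apart by control_iron replicate 3 (1.08) and high_iron replicate 2 (-1.14).

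No library was high or low for all targets. Control_iron replicate 3 had the most Id1 and Id3 and the least Smad7, Bambi and Atoh8. High_iron replicate 2 had the least Id1 and Id3 and the most Atoh8. Over the 7 tested members 3 log2 fold changes were positive and 4 negative, with a median of -0.24, beside a median of -0.0034 over all genes tested.

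The ligand Bmp6 (ENSMUSG00000039004, plus strand of chromosome 13, from 38345107 to 38500302, with 5.74% of its exon length under Txndc5 on the opposite strand) was at 107, 165 and 110.0 CPM in the control libraries and at 613, 875 and 810.4 CPM in the high-iron libraries. Its log2 fold change was 2.59 ± 0.20 (SE, limma adjusted p = 3.3e-04), with a 95% interval from 2.15 to 3.04. The lower bound lies above the upper bound of every tested member. Within the high-iron diet replicate 2 had the most Bmp6. Id2 was at 544, 539.65 and 636 CPM in high_iron replicates 1 to 3, with replicates 1 and 2 too close to rank. A relation between Bmp6 and Id2 across libraries was not tested.

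The rest of the pathway was described through 6 lists holding 58 further genes, of which 46 were tested. Bmp6 was the single gene of the 46 that rose, and 0 fell by limma or edgeR, while 8 had an unadjusted p under 0.05. Of 16 tested other BMP targets, 0 passed by limma or edgeR, 3 had an unadjusted p under 0.05 and DESeq2 called 2, with a median log2 fold change of 0.02. The 2 with the highest RPKM were Id4 and Gja4, a gap junction protein of endothelium, which was at 221 ± 65.7 and 281 ± 34.6 CPM (SD, n = 3). Nrarp, an inhibitor of Notch signalling chosen after its values were seen, was at 81.3, 70.2 and 100.1 CPM in the control and at 49.9, 22.6 and 39.9 CPM in the high-iron libraries. It did not pass in limma (log2 fold change -1.20 ± 0.26, SE, adjusted p = 0.074) and was called by DESeq2.

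Of 6 tested ligand genes Bmp6 was again the single call (edgeR and DESeq2 called 1 too), with a list median of 0.28. The list of hepatocyte iron genes also held Bmp6, which was its single call among 5 tested, with a median of 0.54. The other tested genes of that list, Hamp among them, did not pass by limma, edgeR or DESeq2. Of 10 listed receptors and co-receptors 9 were tested, and the other, Bmpr1b, had 0 to 4 reads per library. Of the 9, 0 passed by limma, edgeR or DESeq2 and 2 had an unadjusted p under 0.05. Those were Bmpr2 (28.1 ± 2.35 and 18.4 ± 3.18 CPM) and Neo1 (9.54 ± 2.38 and 4.95 ± 0.58 CPM), named after their values were seen. Both were lower on the high-iron diet without overlap, a separation found in that direction for 8.44% of all genes tested. The log2 fold change was negative for 8 of the 9, with a list median of -0.06, while 49.5% of all genes tested were positive. Eng, the endoglin co-receptor, was at 3185 ± 80.2 and 3068 ± 245 CPM, and Acvrl1, which encodes ALK1, at 79.0 ± 5.49 and 76.4 ± 1.97 CPM (SD, n = 3). Of 6 tested genes for SMADs and the phosphatase Ppm1a, 0 passed by limma, edgeR or DESeq2 and 0 had an unadjusted p under 0.05, with a median of 0.07. Smad1 was at 152 ± 12.2 and 150.05 ± 11.2 CPM and Smad4 at 104 ± 4.58 and 111 ± 12.7 CPM.

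The 5 genes for E proteins, with which ID proteins pair, and for the related factors Tal1 and Lyl1 all had a negative log2 fold change. Over all genes tested it was positive for 49.5%. The median of the 5 was -0.31. On the high-iron diet 2 of the 5 were lower without overlap, a separation found in that direction for 8.44% of all genes tested. None passed by limma, edgeR or DESeq2 and 0 had an unadjusted p under 0.05. Tcf4, the most abundant of them, was at 696 ± 86.1 and 559 ± 54.0 CPM, and Tcf3 at 101 ± 13.0 and 90.6 ± 9.72 CPM (SD, n = 3).

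**Figure D4:**
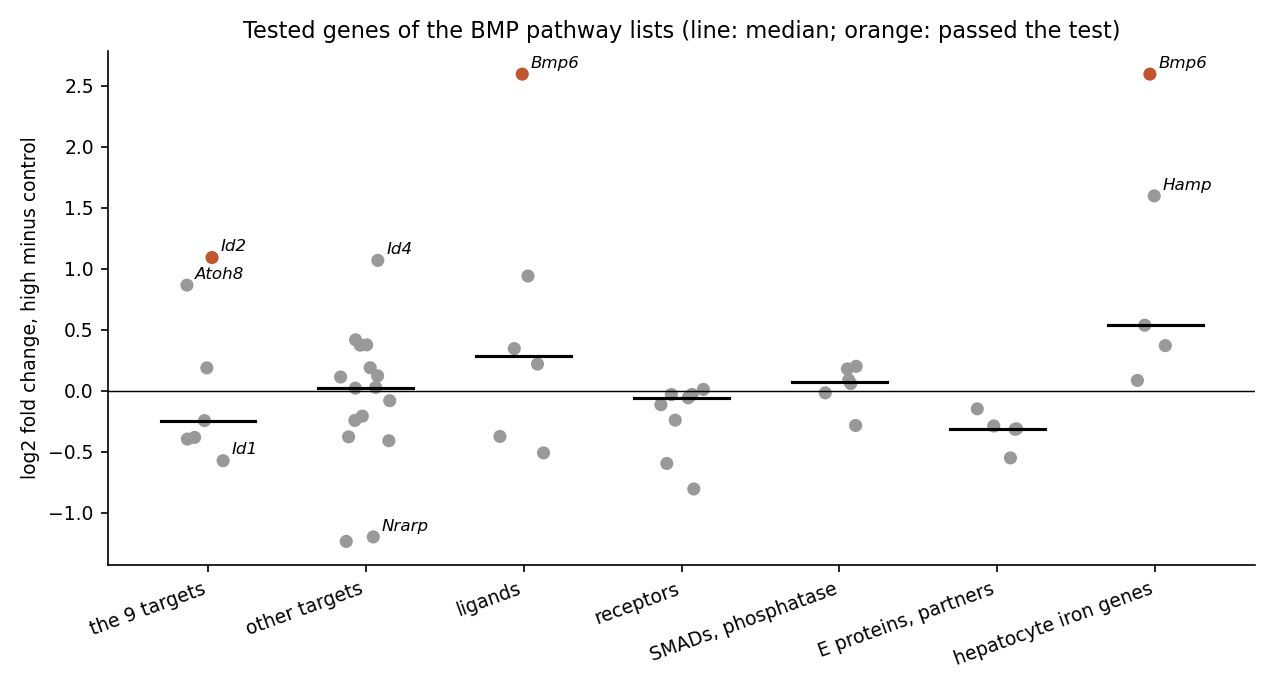
Log2 fold change on log2(CPM + 1), high iron minus control iron, of every tested gene in the BMP pathway lists; each point is a gene, the line is the list's median and orange marks genes that passed limma's test. Bmp6 stands in both the ligand list and the list of hepatocyte iron genes at 2.59, Id2 leads the 9 targets at 1.09, and the medians of the other targets, receptors and SMADs lie at 0.02, -0.06 and 0.07.

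By the root mean square difference between centred log2(CPM + 1) profiles over the 6 libraries, the gene most like Id2 was Btnl9, a butyrophilin-like gene, with a difference of 0.07 among 10199 genes compared. Btnl9 was at 139.7 CPM on the control and 275 CPM on the high-iron diet by mean (log2 fold change 0.98, limma adjusted p = 0.013). The gene next to it was Syt12, a synaptotagmin (0.11). The difference grows with the spread of a gene's own profile, which was 0.66 for Id1 and 0.20 to 0.57 for the other 6 tested members (SD over the 6 libraries). The nearest genes of Id1 were Gm26764 and Sertad1 at 0.20 each. The nearest genes of Id3 were Ppig and D10Jhu81e (0.04 each), those of Smad6 were 2310067B10Rik (0.04) and Eml4 (0.05), and those of Smad7 were Trappc9 (0.03) and Shb (0.04). Rab27a and Ldhd were nearest to Bambi, and Lman2l and Gm9769 to Atoh8, at 0.08 each.

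Markers of cells that the gate leaves out were measured beside these changes. Of 15 tested macrophage markers 3 rose by limma (Csf1r, Marco and Clec4f), edgeR called 2 (not Clec4f, adjusted p = 0.066) and DESeq2 called 10. All 15 had an unadjusted limma p under 0.05, all 15 were on the positive side (median log2 fold change 1.66), and none of the 16 listed was at 0 in every library. Their summed level was 79.1, 181 and 98.0 CPM in control_iron replicates 1 to 3 and 531, 267 and 365 CPM in high_iron replicates 1 to 3, with no overlap. Of the 2 tested lymphocyte genes Ighm rose by limma (adjusted p = 0.045) but was not called by edgeR (adjusted p = 0.069), DESeq2 called 1, and both had an unadjusted limma p under 0.05. That list summed to 2.51 to 5.47 CPM on the control and 9.31 to 15.0 CPM on the high-iron diet.

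By limma the log2 fold change was above 0 for all 15 tested hepatocyte markers (median 0.57) and for 49.5% of all genes tested. Among the markers it was below 0 for Apoa2 (-0.12 and -0.11) and Ttr (-0.15 and -0.14) by edgeR and DESeq2, so the shared sign depended on the method. Of the 15, 0 passed by limma or edgeR, while 3 had an unadjusted limma p under 0.05 and DESeq2 called 2. Their summed level, led by Apoa2 and Alb, was 287, 1309.7 and 787 CPM in the control libraries and 659, 1294 and 1034 CPM in the high-iron libraries, with overlap. Hamp, the hepcidin gene that hepatocytes express, was at 7.21 ± 5.34 and 19.6 ± 7.49 CPM (SD, n = 3) and did not pass (limma adjusted p = 0.32). Stellate cell genes, led by Rgs5 and Dcn, summed to 142 to 1063 CPM on the control and 225 to 982 CPM on the high-iron diet. Erythroid genes, led by Hbb-bs and Hba-a1, summed to 1159.7 to 3791 CPM and 832 to 4737 CPM, and cholangiocyte genes to 0.371 to 5.45 CPM and 2.48 to 6.01 CPM. Of the 10 stellate, 6 erythroid and 1 cholangiocyte genes tested, 0 passed by limma, edgeR or DESeq2, and 1 erythroid gene had an unadjusted p under 0.05. The part of other cell types in the levels of Id2, Id4 and Atoh8 was not tested.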

How the data were processed

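The authors deposited a table of 39179 genes by 6 libraries with a signal they named CPM, read numbers divided by scaled library sizes, and a table of RPKM values made from it with the deposited gene lengths. STAR, HTSeq, edgeR and mm10 are named in the submitters' processing notes, with no roles; how reads were counted was not stated. Each value was a whole multiple of the value of 1 read in its library (100% of 114253 values above 0, tolerance 0.001 read), so reads were recovered. TMM factors recomputed from them matched the authors' scaling within 6.7e-16. The low-input cDNA kit, per the labels, is not one that marks strand, but no other GENCODE M21 exon overlaps those of the 9 genes, and BLAST+ 2.17.0 found no near-identical copy (at least 95% identity over at least 50% of a transcript).

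The main test was limma 3.58.1 (R 4.3.3) on log2(CPM + 1), two-sided, with group as the only term, a variance trend and Benjamini-Hochberg adjustment over 12980 genes. Folds on this scale understate changes of low genes. EdgeR 4.0.16 (quasi-likelihood) called 112 genes on the recovered reads and DESeq2 1.42.0 called 424, with 2 left without an adjusted p. Alternatives were pseudocounts of 0.1 and 0.5, no filter, a minimum of 5 CPM, total-count and DESeq2 scaling, a replicate block and leaving out each library. As a check of the code, the fits were first run on reads simulated independently for each gene and library. Those reads held no other cell types and no shared replicate effects, so that run does not show that calls in these libraries are right. Within a diet every pair of libraries differed far beyond sampling noise (chi-square over its degrees of freedom, 18.2 to 89.1), so all 6 were kept. Depth was 12963510 to 21663543 reads per library, and the floor of 3 reads covers counting error only. No batch is given in the labels.

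The members and lists were chosen with earlier results of these data known. Named genes were the members, Bmp6, up to 6 called genes of each list (or its 2 most abundant by RPKM where none was called), and the 2 genes nearest in profile to each member among those with a mean of at least 5 CPM. Hamp, Nrarp, Bmpr2, Neo1, Lyve1, Mcam, Ttr, Tal1 and Lyl1 were named outside that rule. Promoter windows and their sequences are from RefSeq (GRCm38.p6), held for 5 of the 9 members, and motifs were searched on both strands. Motif matches were not recorded for members on chromosome 18 (Smad7 and Bambi), so none can be called absent there.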

Additional observations from a re-analysis of the deposited data

How the results depend on the processing

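The sign of the log2 fold change of all 7 tested members and of Bmp6 was the same in all 15 alternatives. The number of members called higher was 1 and became 0 with no filter on low values, 2 with DESeq2 and 2 with the replicate block, where Atoh8 joined Id2. It was 0 to 1 with a library left out, 0 without high_iron replicate 3. No alternative called a member lower. Among the other pathway genes, 1 was called higher and 0 lower. DESeq2 called 2 higher (Bmp6 and Id4) and 1 lower (Nrarp), and the replicate block 3 higher (Bmp6, Id4 and Hamp) and 1 lower (Nrarp). Leaving out a library left these counts at 1 and 0. Over the 6 fits with a library left out the log2 fold change of Id2 was 0.98 to 1.20 and that of Id1 -0.85 to -0.14, and the ratio differences were 1.28 to 1.95 for Id2 against Id1 and 1.44 to 1.53 for Id2 against Id3. Adjusted p-values over all settings ran from 3.4e-08 to 0.11 for Id2 and from 0.039 to 0.61 for Atoh8. Same-numbered libraries deviated together with correlations of 0.13, 0.32 and 0.06, and the main test did not pair them. Summed stellate genes were 142, 1063 and 545 CPM in control_iron replicates 1 to 3, and 225, 982 and 600 CPM in high_iron. Summed hepatocyte markers likewise were lowest in replicate 1 and highest in replicate 2 of both diets. Macrophage and endothelial sums were not ordered alike in both diets. Whether same-numbered libraries share a batch was not tested. The replicate block gave 402 calls over all genes, against 133. DESeq2 called 424, and 34 passed with no filter, where 23979 genes were tested. With a library left out 26 to 173 genes were called, 26 without high_iron replicate 3 and 173 without control_iron replicate 1. The cause of these shifts was not tested. Smad9 and Tmem100 could not be compared at this depth.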
